A study of Homo sapiens with 8 samples.

Results

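The receptors of the epidermal growth factor (EGF) family, their ligands and their feedback inhibitor were followed through the knockdown of *HHEX*, of *YAP1* together with *WWTR1*, and of the TEAD genes in HCT-116, a human colorectal cancer cell line. A total of 10 of the 20030 genes in the expression tables were taken by name: the receptors *EGFR*, *ERBB2* and *ERBB3*, the ligands *AREG*, *EREG*, *HBEGF*, *TGFA*, *BTC* and *EPGN*, and the inhibitor *ERRFI1*. All 10 were found, and 9 of them passed the filter for testing. *EPGN* was too low to be tested. The cells received control siRNA (siNC, 2 libraries), siRNA against *HHEX*, which encodes a homeobox transcription factor (siHHEX, 3 libraries), siRNAs against *YAP1* and *WWTR1*, the genes of the coactivators YAP and TAZ (siYAP/TAZ, 2 libraries), or siRNAs against *TEAD1*, *TEAD2*, *TEAD3* and *TEAD4*, the DNA-binding partners of YAP and TAZ (siTEAD1/2/3/4, 1 library). The methods number the siRNAs of *HHEX* and of YAP/TAZ as the labels number the libraries, so the replicates of these groups may also differ in siRNA, and nothing states that the libraries of a group were separate cultures. All libraries came from the same cell line, and p-values measure the spread between these libraries.

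The ligands are made as membrane proteins and are released by the proteases ADAM17 and ADAM10. AREG and TGFA bind EGFR alone, whereas EREG, HBEGF and BTC can also bind ERBB4. A bound receptor pairs with another member of the family. ERBB2 has no known ligand of its own and is the preferred partner of the others, and ERBB3 has little kinase activity but, once paired, recruits PI3K. The signal runs through adaptors to RAS and ERK and to PI3K and AKT, and ERRFI1, also known as MIG6, is induced by this signalling and blocks the EGFR kinase. In colorectal cancer the level of *AREG* and *EREG* is studied as a marker of response to EGFR antibodies. *AREG* is a well-known target gene of YAP.

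Promoter sequences from RefSeq on GRCh38.p14 were matched by symbol for 9 of the 10 genes (all but *ERBB3*). The 250 bases before the annotated start were searched on both strands for GGAATG, the letters bound by TEAD factors, and for TGANTCA. The latter, with any base at N, is a loose form of the letters bound by AP-1. The first was found in 1 of the 9, *EREG*, 175 bases before its start and on the reverse strand, and 11.9% of all 27305 promoters of the same length hold it. The second was found in 1 of the 9, *ERBB2*, as TGATTCA, 222 bases before its start, and 6.6% of all promoters hold this loose form. Below are the promoters of *EREG* and *AREG*, neighbours on chromosome 4 (chr4:74364895-74365144 and chr4:74444886-74445135, both plus strand), of which the former fell in siHHEX and the latter was not called, and of *HBEGF* (chr5:140346604-140346853, minus strand), the ligand that fell in siYAP/TAZ, 5′ to 3′ and ending at the base before the start, with the match to the TEAD letters in capitals. The fall of *EREG* in siHHEX was not called after the correction of GC and length described below (-0.22, limma, adjusted p = 0.255). A match is a description of the letters and not of binding.
EREG: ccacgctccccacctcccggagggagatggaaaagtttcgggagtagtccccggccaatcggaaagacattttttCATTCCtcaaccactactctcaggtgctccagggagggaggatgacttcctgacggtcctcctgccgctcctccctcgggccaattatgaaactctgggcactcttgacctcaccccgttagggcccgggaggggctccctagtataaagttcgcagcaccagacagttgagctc
AREG: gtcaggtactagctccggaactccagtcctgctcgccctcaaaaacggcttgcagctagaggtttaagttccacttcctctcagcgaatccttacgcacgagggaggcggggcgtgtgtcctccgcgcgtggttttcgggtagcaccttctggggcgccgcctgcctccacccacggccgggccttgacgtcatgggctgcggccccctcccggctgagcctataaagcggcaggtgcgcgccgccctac
HBEGF: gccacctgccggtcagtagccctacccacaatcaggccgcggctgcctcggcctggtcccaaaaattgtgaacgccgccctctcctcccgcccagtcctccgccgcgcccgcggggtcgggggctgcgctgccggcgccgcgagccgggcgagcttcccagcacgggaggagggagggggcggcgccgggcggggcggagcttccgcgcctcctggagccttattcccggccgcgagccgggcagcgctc

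The knockdown targets were read first. *HHEX* was at 8.60 and 9.06 FPKM (fragments scaled to the length of the transcript and to the library total, so a level per length) in siNC, and at 3.25, 3.54 and 1.85 FPKM in siHHEX 1, 2 and 3. Its log2(FPKM + 1) difference was -1.37 (limma, adjusted p = 0.0054), and -1.34 after the correction of GC and length described below (limma, adjusted p = 0.0165). The call was not kept in every fit with 1 library left out. *YAP1* was at 20.2 and 19.7 FPKM in siNC and at 6.90 and 8.39 FPKM in siYAP/TAZ, and *WWTR1* was at 6.80 and 6.72 FPKM against 2.64 and 2.58 FPKM. *WWTR1* was called lower (limma, adjusted p = 0.0156), except without siNC 1, siNC 2 or siYAP/TAZ 2 (highest adjusted p from limma 0.133). *YAP1*, at 38.3% of its siNC mean, was not called (limma, adjusted p = 0.0681), but was called in a fit of siNC and siYAP/TAZ alone (limma, adjusted p = 0.0108). In siTEAD1/2/3/4, *TEAD1* was at 9.02 FPKM and *TEAD4* at 5.56 FPKM, below both siNC libraries, but *TEAD3*, at 9.08 FPKM, was above its siNC values of 7.36 and 6.99 FPKM. *YAP1* was also low in siHHEX 1 (5.77 FPKM) and siHHEX 3 (6.93 FPKM), but at 17.4 FPKM in siHHEX 2. It was called lower in siHHEX (limma, adjusted p = 0.0429), a call lost after the correction of GC and length described below (limma, adjusted p = 0.171) and without any 1 library other than siHHEX 2 (highest adjusted p from limma 0.177). *WWTR1*, at 5.12, 6.12 and 8.55 FPKM in siHHEX 1, 2 and 3, lay on both sides of its siNC values and was not called (limma, adjusted p = 0.82). *TEAD1* was at 6.99, 10.2 and 5.30 FPKM in siHHEX 1, 2 and 3 against 18.3 and 19.0 FPKM in siNC, and fell by 1.25 on the log2(FPKM + 1) scale (limma, adjusted p = 0.00641). *TEAD2* rose in siHHEX, to 6.50, 8.02 and 7.18 FPKM against 4.10 and 3.47 FPKM in siNC (limma, adjusted p = 0.00709), and was at 2.73 FPKM in siTEAD1/2/3/4. In siYAP/TAZ *TEAD4* fell, to 12.5 and 13.6 FPKM against 20.3 and 21.3 FPKM (limma, adjusted p = 0.025), and *HHEX*, at 4.80 and 7.12 FPKM, was below both siNC libraries but not called (limma, adjusted p = 0.196). The call of *TEAD2* was lost after a correction for transcript GC content and transcript length (limma, adjusted p = 0.0985). Those of *TEAD1*, *TEAD2* and *TEAD4* were lost without either siNC library (highest adjusted p from limma 0.0747, 0.0877 and 0.229), and that of *TEAD4* also without either siYAP/TAZ library. The part of these other targets in the results was not tested. Epithelial markers were present in every library, with *KRT8* the most abundant at 897 to 1757 FPKM and *EPCAM* at 116 to 174 FPKM, although *CDX1* was listed at 0 in all 8 libraries and *VIL1* and *CEACAM5* did not exceed 0.0335 FPKM. The 10 epithelial markers summed to 3375 and 3518 FPKM in siNC, 3120, 3446 and 3661 FPKM in siHHEX, 2033 and 1978 FPKM in siYAP/TAZ and 2718 FPKM in siTEAD1/2/3/4. The lower siYAP/TAZ sum came mainly from *KRT8* and *KRT18*, at 54.4% and 42.9% of the siNC mean, and *KRT19*, at 77.5%, while *EPCAM* was at 90.7%, *CDX2* at 107% and *KRT20* at 174%, and *CDH1*, at 15.7 and 8.76 FPKM, lay on both sides of its siNC values of 9.16 and 9.52 FPKM. The part of these markers in the siYAP/TAZ results below was not tested. Markers of fibroblasts summed to at most 2.80 FPKM and those of endothelium to at most 0.0882 FPKM in any library, and the leukocyte markers, at 3.57 to 8.21 FPKM, were mostly *CD68*, with *PTPRC* at no more than 0.101 FPKM.

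In control cells the ligands far outweighed their receptors at the RNA level. *AREG*, the gene of amphiregulin, was highest at 224 and 208 FPKM in siNC 1 and 2, and *EREG*, the gene of epiregulin, followed at 136 and 143 FPKM. *ERRFI1* came next at 80.5 and 76.4 FPKM. *TGFA* stood at 15.9 and 15.0 FPKM, *ERBB2* at 9.80 and 10.4 FPKM and *EGFR* at 6.39 and 7.25 FPKM. *HBEGF* was at 5.56 and 5.31 FPKM, *ERBB3* at 3.41 and 3.11 FPKM, *BTC* at 0.435 and 0.456 FPKM and *EPGN* at 0.0116 and 0.0126 FPKM. No neighbours in this order overlapped between the siNC libraries. *AREG*, *EREG* and *ERRFI1* held the first 3 ranks in every group, and *BTC* and *EPGN* the last, while *EGFR* went from rank 6 in siNC to rank 8 in siHHEX and *ERBB3* from rank 8 to rank 6 in siYAP/TAZ and in siTEAD1/2/3/4. The remaining receptor and ligands of the family were nearly silent: *ERBB4* was listed at 0 in 6 of 8 libraries, *NRG3* at 0 in all 8, and *EGF*, *NRG1*, *NRG2* and *NRG4* did not exceed 0.345 FPKM.

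**Figure D1:**
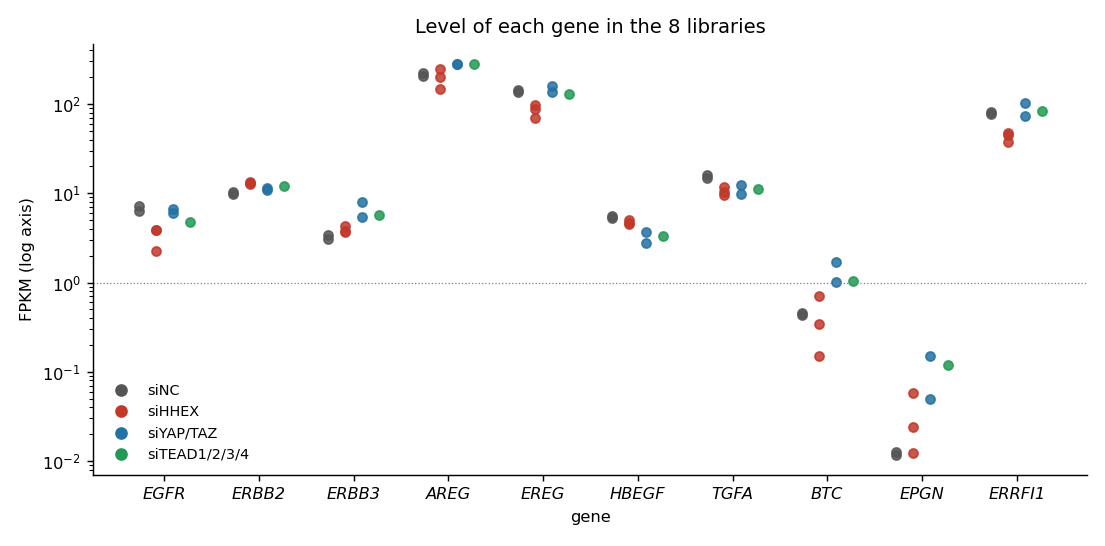
FPKM of the 10 genes in each of the 8 libraries, on a log axis, with a point per library, a colour per group and a dotted line at 1 FPKM. *AREG*, *EREG* and *ERRFI1* lie highest in every group, *BTC* crosses 1 FPKM only in the siYAP/TAZ and siTEAD1/2/3/4 libraries, and *EPGN* stays below 0.152 FPKM.

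Changes were tested with limma on log2(FPKM + 1) for the 10677 genes that reached 1 FPKM in 2 or more libraries, with Benjamini-Hochberg adjustment over all of them, and a gene was called at an adjusted p under 0.05. A difference on this scale understates the change of a gene with a low level. In siHHEX, *EGFR*, *EREG*, *TGFA* and *ERRFI1* fell and *ERBB2* rose, so that 4 of the 9 tested members were called lower against 16.9% of all tested genes, and 1 was called higher against 16% of them. In either direction 5 of 9 were called, against 32.9%. On the log2(FPKM + 1) scale, none of the 9 met the study's criterion, a fold change over 2 with an unadjusted p under 0.05, which 1.63% of tested genes met on that scale. As a ratio of mean FPKM, *EGFR* was past 2-fold. The change of a gene in siHHEX moved with the GC content of its transcripts, with Spearman coefficients across tested genes of 0.68, 0.60 and 0.75 in siHHEX 1, 2 and 3, against 0.061 and -0.051 in siYAP/TAZ 1 and 2, 0.30 in siTEAD1/2/3/4 and 0.21 between the siNC libraries. Estimates corrected for GC content and transcript length are given beside the siHHEX results of the members. All siHHEX calls among the members also depended on both siNC libraries: without siNC 1 or without siNC 2 none of the 5 passed, with adjusted p from limma between 0.0739 and 0.316.

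*EGFR*, the receptor of all 6 ligands measured here (chr7:55019017-55211628, plus strand, here and below on GRCh38 from GENCODE), was at 3.86, 3.87 and 2.28 FPKM in siHHEX 1, 2 and 3, against 6.39 and 7.25 FPKM in siNC. Every siHHEX library lay below both siNC libraries, and siHHEX 3 was the lowest. The mean of 3.33 ± 0.917 FPKM (SD, n = 3) was 48.9% of the siNC mean of 6.82 ± 0.604 FPKM (SD, n = 2). *EGFR* fell by 0.87 on the log2 scale (SE 0.185, limma, adjusted p = 0.0112). After the correction of GC and length it fell by 0.75 (limma, adjusted p = 0.0366), and *EGFR* was the single member whose siHHEX call was kept under that correction. Without siNC 1 or siNC 2 the adjusted p from limma was 0.0983 or 0.0976.

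*ERBB2* (chr17:39687914-39730426, plus strand) moved the other way, at 12.8, 12.9 and 13.3 FPKM in siHHEX 1, 2 and 3 against 9.80 and 10.4 FPKM in siNC. All 3 siHHEX libraries were above both siNC libraries and close to one another. The rise was 0.33 on the log2 scale (SE 0.113, limma, adjusted p = 0.0485), just inside the threshold. At a transcript GC content of 60.4%, *ERBB2* was the most GC-rich of the 9 tested members, and its change was 0.053 after the correction (limma, adjusted p = 0.788). The call was also lost without siHHEX 1 (limma, adjusted p = 0.0836), without siHHEX 3 (0.0743), without siYAP/TAZ 1 (0.0562), without siYAP/TAZ 2 (0.0559), in a fit of siNC and siHHEX alone (0.0559), and without siNC 1 or siNC 2 (0.316 and 0.203). *ERBB3* (chr12:56076799-56103505, plus strand) was at 3.70, 3.74 and 4.35 FPKM in siHHEX, above both siNC values of 3.41 and 3.11 FPKM, and its difference of 0.21 was not called (95% interval -0.15 to 0.57, limma, adjusted p = 0.323), with 0.19 after the correction.

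Of the abundant ligands, *EREG* fell in siHHEX and *AREG* was not called. *EREG* (chr4:74365145-74388749, plus strand) was at 89.1, 98.4 and 69.8 FPKM in siHHEX 1, 2 and 3 against 136 and 143 FPKM in siNC. The groups did not overlap, and the siHHEX mean of 85.7 ± 14.6 FPKM (SD, n = 3) was 61.4% of the siNC mean. *EREG* fell by 0.71 on the log2 scale (SE 0.149, limma, adjusted p = 0.0111). With a GC content of 36.1%, the lowest of the 9 tested members, it changed by -0.22 after the correction (limma, adjusted p = 0.255), and without siNC 1 or siNC 2 the adjusted p from limma was 0.102 or 0.0932. *AREG* (chr4:74445136-74455005, plus strand) was at 247, 146 and 200 FPKM in siHHEX 1, 2 and 3 against 224 and 208 FPKM in siNC. The siHHEX libraries lay on both sides of the siNC values, with siHHEX 1 above and siHHEX 2 and 3 below. The difference was -0.16 (95% interval -0.57 to 0.25, limma, adjusted p = 0.5), and it was -0.13 after the correction and 0.039 without siHHEX 2.

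*TGFA*, the gene of transforming growth factor alpha (chr2:70447284-70554193, minus strand), was at 10.4, 11.7 and 9.65 FPKM in siHHEX 1, 2 and 3 against 15.9 and 15.0 FPKM in siNC. The groups did not overlap, and *TGFA* fell by 0.51 on the log2 scale (SE 0.137, limma, adjusted p = 0.0228). Its change was -0.27 after the correction of GC and length (limma, adjusted p = 0.186), and the adjusted p from limma was 0.052 with no filter on low values, 0.058 without siHHEX 1, 0.185 without siNC 1 and 0.126 without siNC 2. *HBEGF*, whose product is heparin-binding EGF-like growth factor (chr5:140332843-140346603, minus strand), was at 4.48, 4.65 and 4.97 FPKM in siHHEX against 5.56 and 5.31 FPKM in siNC. These values did not overlap, but the difference of -0.18 was not called (95% interval -0.48 to 0.13, limma, adjusted p = 0.326), nor was the -0.26 after the correction. *BTC*, the gene of betacellulin (chr4:74744759-74794523, minus strand), was at 0.342, 0.702 and 0.149 FPKM in siHHEX and overlapped its siNC values of 0.435 and 0.456 FPKM. Its log2 difference was -0.068 (limma, adjusted p = 0.791) and 0.31 after the correction.

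*ERRFI1* (chr1:8004404-8026309, minus strand) was, after *EREG*, the most abundant of the members with a call in siHHEX. It was at 37.8, 46.8 and 44.9 FPKM in siHHEX 1, 2 and 3 against 80.5 and 76.4 FPKM in siNC. The groups were far apart, and the siHHEX mean of 43.2 ± 4.72 FPKM (SD, n = 3) was 55% of the siNC mean of 78.5 ± 2.89 FPKM (SD, n = 2). *ERRFI1* fell by 0.85 on the log2 scale (SE 0.155, limma, adjusted p = 0.00763). After the correction the change was -0.60 (limma, adjusted p = 0.0551), and without siNC 1 or siNC 2 the adjusted p from limma was 0.0983 or 0.0739. In all, 5 of the 9 tested members lay wholly below siNC in siHHEX, where 33.8% of all tested genes did, and 2 lay wholly above, where 33.1% did.

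**Figure D2:**
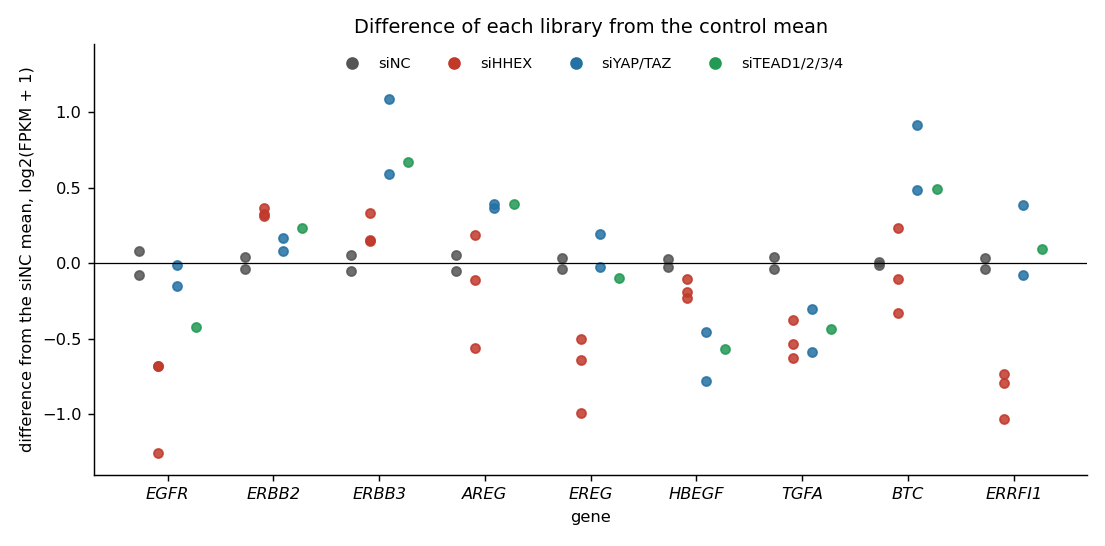
Difference of each library from the siNC mean on log2(FPKM + 1), with a point per library and a colour per group, for the 9 tested genes. The siHHEX points of *EGFR*, *EREG*, *TGFA* and *ERRFI1* lie below the siNC points, and the siYAP/TAZ and siTEAD1/2/3/4 points of *ERBB3* lie above them.

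In siYAP/TAZ *ERBB3* rose and *HBEGF* fell, each 1 of the 9 tested members, against 6.15% of all tested genes called higher and 2.13% called lower, or 8.28% in either direction. On the log2(FPKM + 1) scale no tested member met the study's criterion, which 1.57% of tested genes met on that scale, while as ratios of mean FPKM *ERBB3* and *BTC* were past 2-fold. Scaling the libraries to the median of the tested genes took 0.11 off the siYAP/TAZ differences, -0.071 off those of siHHEX and 0.062 off those of siTEAD1/2/3/4, and the values after this scaling are given beside the siYAP/TAZ differences below. Of the 9 tested members, 4 lay wholly above siNC in siYAP/TAZ, where 42.9% of all tested genes did, but 1 of these 4 is *BTC*, which passed the filter through its siYAP/TAZ and siTEAD1/2/3/4 libraries alone, and 2 lay wholly below, where 24.8% did. These comparisons share the siNC libraries with those of siHHEX.

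*ERBB3* was at 5.39 and 8.02 FPKM in siYAP/TAZ 1 and 2 against 3.41 and 3.11 FPKM in siNC. Both siYAP/TAZ libraries were above siNC, with siYAP/TAZ 2 the higher, and the mean of 6.70 ± 1.86 FPKM (SD, n = 2) was 206% of the siNC mean. The rise was 0.84 on the log2 scale (SE 0.177, limma, adjusted p = 0.026) and 0.73 after median scaling (limma, adjusted p = 0.042). After the correction of GC and length it was 0.83 (limma, adjusted p = 0.0238). It was not called with no filter on low values (limma, adjusted p = 0.0766), without siYAP/TAZ 2 (0.15), without siNC 1 (0.168) or without siNC 2 (0.201). *EGFR*, at 6.75 and 6.02 FPKM, overlapped siNC (difference -0.082, limma, adjusted p = 0.832, and after scaling -0.19, adjusted p = 0.581), with a 95% interval of -0.54 to 0.37. *ERBB2*, at 10.7 and 11.4 FPKM, was above both siNC libraries by a difference that was not called (0.12, limma, adjusted p = 0.561, and after scaling 0.017, adjusted p = 0.943).

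*HBEGF* was at 3.69 and 2.74 FPKM in siYAP/TAZ 1 and 2 against 5.56 and 5.31 FPKM in siNC. Both were below siNC, and the mean of 3.22 ± 0.672 FPKM (SD, n = 2) was 59.2% of the siNC mean. *HBEGF* fell by 0.62 on the log2 scale (SE 0.149, limma, adjusted p = 0.038), and by 0.72 after median scaling (limma, adjusted p = 0.0302). After the correction of GC and length its difference was -0.58 (limma, adjusted p = 0.0286). The call was lost with no filter on low values (limma, adjusted p = 0.0772), without siYAP/TAZ 2 (0.207), without siHHEX 1 (0.0578), without siNC 1 (0.27) and without siNC 2 (0.235). *TGFA*, at 12.3 and 9.91 FPKM, was also below both siNC libraries, but its difference of -0.45 was not called (limma, adjusted p = 0.0937, and after scaling -0.55, adjusted p = 0.0578).

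*AREG* was at 279 and 284 FPKM in siYAP/TAZ 1 and 2, above both siNC values of 224 and 208 FPKM. The siYAP/TAZ libraries were close to each other, with a mean of 281 ± 3.00 FPKM (SD, n = 2), or 130% of siNC. The difference of 0.38 was not called in the fit of all libraries (limma, adjusted p = 0.255, and 0.27 after scaling, adjusted p = 0.455), and it was called in a fit of siNC and siYAP/TAZ alone (limma, adjusted p = 0.0307). *EREG*, at 160 and 137 FPKM, and *ERRFI1*, at 103 and 74.3 FPKM, overlapped siNC, and their differences were 0.084 and 0.15, or -0.021 and 0.049 after scaling. *BTC* was at 1.03 and 1.72 FPKM in siYAP/TAZ and at 1.03 FPKM in siTEAD1/2/3/4, and these are the 3 libraries through which it passed the filter. Its difference of 0.70 was not called (limma, adjusted p = 0.0649, and 0.59 after scaling, adjusted p = 0.0904). The adjusted p from limma was 0.0246 after the correction of GC and length, 0.0479 in the fit of the compared groups, 0.042 without siHHEX 2, 0.0481 without siHHEX 3 and 0.0483 without siYAP/TAZ 1, and none of these is read as support, since the filter let *BTC* in through its high libraries.

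The siTEAD1/2/3/4 library has no replicate, so its values carry no test. *ERBB3*, at 5.77 FPKM, was the 1 member past 1.5-fold on the log2(FPKM + 1) scale, with a difference of 0.67 from the siNC mean, where 4.15% of tested genes were past it upward and 2.18% downward. *HBEGF* was at 3.34 FPKM and *TGFA* at 11.2 FPKM, with differences of -0.57 and -0.43. *EGFR* was at 4.83 FPKM, a difference of -0.42 and 70.8% of the siNC mean. *AREG*, at 284 FPKM, and *BTC* differed by 0.39 and 0.49, *ERBB2* by 0.23, *EREG* by -0.097 and *ERRFI1* by 0.092. The library lay outside the range of the siNC libraries for all 9 tested members, above it for 5, *BTC* among them, and below it for 4, as it did for 52.3% and 35.1% of all tested genes. *EPGN*, whose product is epigen (chr4:74308470-74316789, plus strand), was at 0.12 FPKM here, at 0.152 and 0.0497 FPKM in siYAP/TAZ, at 0.0238, 0.0121 and 0.0584 FPKM in siHHEX and at 0.0116 and 0.0126 FPKM in siNC, levels too low for a comparison.

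The 2 replicated knockdowns were then compared with each other in the same fit, in which the siNC libraries cancel from the estimate but still enter the spread behind each p. In siHHEX, 6 of the 9 tested members were lower than in siYAP/TAZ (25.9% of all tested genes) and 1 was higher (13.5%), together 7 of 9 against 39.3%. The 6 include *BTC*, which was tested only because it reached 1 FPKM in siYAP/TAZ and siTEAD1/2/3/4, so the count is no support for a difference of the members from other genes. The siHHEX libraries lay wholly below siYAP/TAZ for 6 members, *BTC* again among them, where 37.8% of all tested genes did, and wholly above for 2, where 23% did. Median scaling took -0.18 off the differences of this comparison. *ERRFI1* was lower in siHHEX by 1.01 on the log2 scale (SE 0.155, limma, adjusted p = 0.00426), at 37.8 to 46.8 FPKM against 103 and 74.3 FPKM, and was the 1 member to meet the study's criterion on this scale, as 1.52% of tested genes did. Its difference was -0.83 after median scaling (limma, adjusted p = 0.00554) and -0.77 after the correction of GC and length (limma, adjusted p = 0.0244). *EREG* was lower by 0.80 (limma, adjusted p = 0.00624, and 0.62 after scaling, adjusted p = 0.0134), and its difference was -0.32 after the correction of GC and length (limma, adjusted p = 0.0981). *EGFR* was lower by 0.79 (limma, adjusted p = 0.0119, and 0.61 after scaling, adjusted p = 0.0291). This call of *EGFR* was lost after the correction (-0.61, limma, adjusted p = 0.0532), without siYAP/TAZ 1 and without siYAP/TAZ 2.

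The difference between the knockdowns at *ERBB3* was -0.62 (limma, adjusted p = 0.0169), with siHHEX at 3.70 to 4.35 FPKM and siYAP/TAZ at 5.39 and 8.02 FPKM, and was not called after median scaling (-0.45, limma, adjusted p = 0.0507), with no filter on low values (0.0516) or without siYAP/TAZ 2, where it was -0.38 (0.132). *HBEGF* was higher in siHHEX by 0.44 (limma, adjusted p = 0.0301, and 0.62 after scaling, adjusted p = 0.0103). It lay between its siNC and siYAP/TAZ values. The call was lost after the correction (0.32, limma, adjusted p = 0.12), with no filter (0.058) and in a fit of the compared groups (0.0672). The call was also lost without any 1 of siNC 1, siNC 2, siHHEX 1, siHHEX 3 or siYAP/TAZ 2, with a difference of 0.28 without siYAP/TAZ 2. *BTC* had a difference of -0.77 (after scaling -0.59), but since it passed the filter only through the libraries in which it is high, this value is a description and no call is read from it. *AREG* was lower in siHHEX by 0.54 (limma, adjusted p = 0.0428), a call lost after median scaling (-0.36, limma, adjusted p = 0.175). After the correction the difference stayed at -0.53 but was not called (limma, adjusted p = 0.0808). The call was also lost with no filter (limma, adjusted p = 0.124) and in a fit of the compared groups (0.0587). Leaving out siNC 1, siNC 2, siHHEX 3, siYAP/TAZ 1 or siYAP/TAZ 2 ended it too. Without siHHEX 2 the *AREG* difference was -0.34. *ERBB2* differed by 0.21 (limma, adjusted p = 0.159), a difference called only after median scaling (0.39, limma, adjusted p = 0.0262). At *TGFA* the knockdowns differed by -0.065, with a 95% interval of -0.37 to 0.24 (limma, adjusted p = 0.719).

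**Figure D3:**
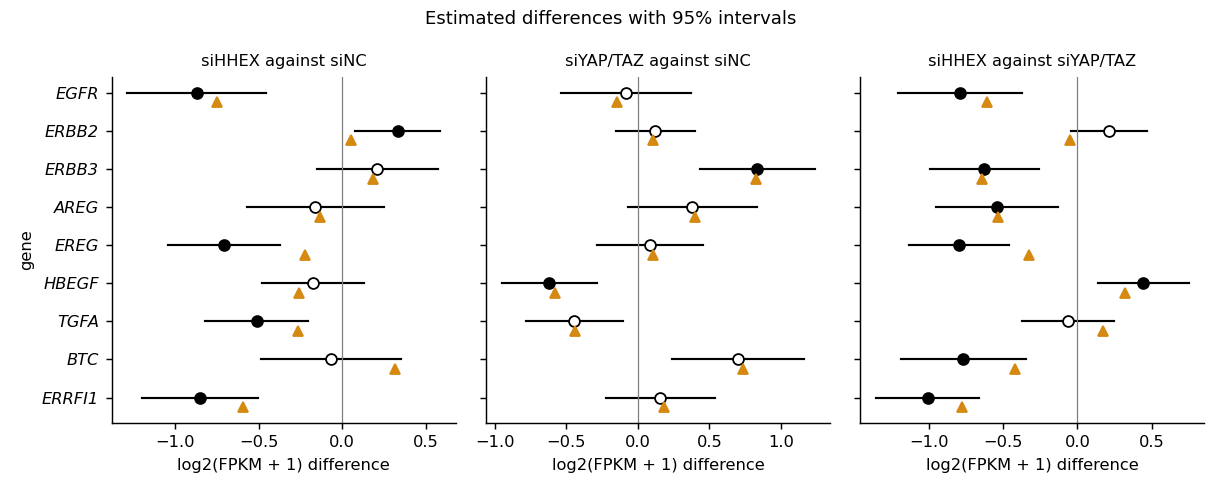
Estimated log2 differences of the 9 tested genes from the fit of all 8 libraries, for siHHEX against siNC, siYAP/TAZ against siNC and siHHEX against siYAP/TAZ, with 95% intervals, filled circles at an adjusted p under 0.05, open circles otherwise and orange triangles for the estimate corrected for GC content and transcript length. In siHHEX the triangle of *EGFR* stays near its circle (-0.75 and -0.87), whereas those of *EREG* (-0.22 and -0.71) and *ERBB2* (0.053 and 0.33) lie closer to 0.

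The make-up of the receptors and of the ligands was read per library. The 3 receptors summed to 19.6 and 20.8 FPKM in siNC and, within that range, to 20.3, 20.5 and 19.9 FPKM in siHHEX, and to 22.9 and 25.5 FPKM in siYAP/TAZ and 22.6 FPKM in siTEAD1/2/3/4. *EGFR* made up 32.6% and 34.9% of that sum in siNC, 19.0%, 18.9% and 11.4% in siHHEX, 29.5% and 23.6% in siYAP/TAZ and 21.3% in siTEAD1/2/3/4. The ratio of *EGFR* to *ERBB2* was accordingly 0.652 and 0.696 in siNC, 0.302, 0.300 and 0.171 in siHHEX, 0.628 and 0.526 in siYAP/TAZ and 0.401 in siTEAD1/2/3/4, so that all knockdown libraries lay below both siNC libraries and siHHEX was lowest. The 6 ligands summed to 382 and 372 FPKM in siNC, 351, 261 and 285 FPKM in siHHEX, 456 and 435 FPKM in siYAP/TAZ and 430 FPKM in siTEAD1/2/3/4. *AREG* and *EREG* were together 93.5% to 96.7% of the ligand sum in all 8 libraries. The ratio of *EREG* to *AREG* was 0.606 and 0.688 in siNC, and in siHHEX it was 0.361 and 0.348 in libraries 1 and 3 but 0.674 in library 2. The siHHEX libraries with the low ratio are those with the lower *YAP1* and *TEAD1* and the steeper GC trend, and the part of these in it was not tested. *EREG* was below both siNC libraries in all siHHEX libraries, and *AREG* was lowest in siHHEX 2, at 146 FPKM. In siYAP/TAZ the ratio of *EREG* to *AREG* was 0.573 and 0.483, and in siTEAD1/2/3/4 it was 0.459. These sums and ratios were not tested.

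**Figure D4:**
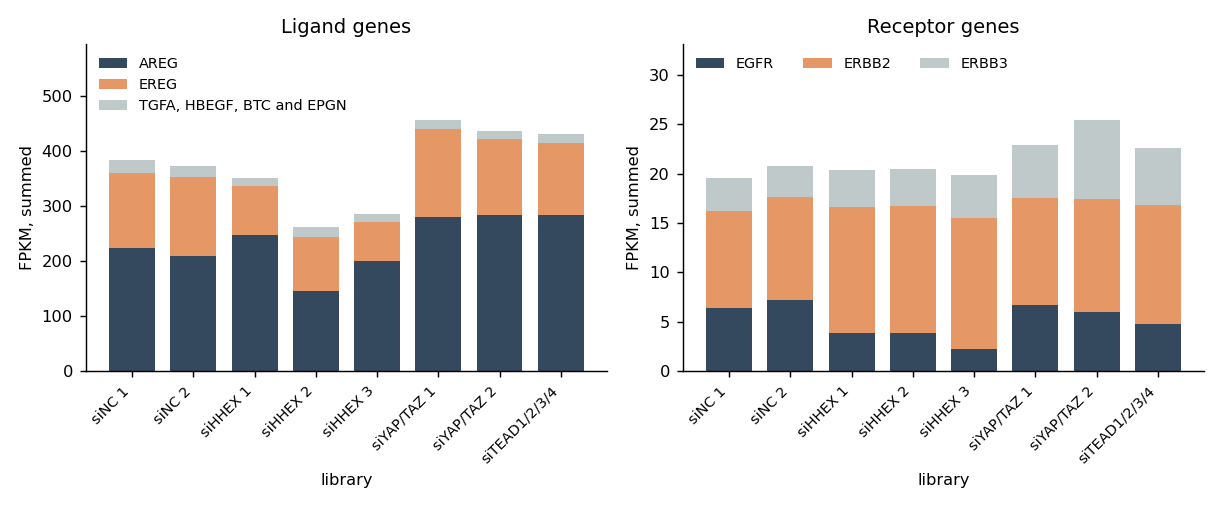
Make-up of the receptor RNA and the ligand RNA in each of the 8 libraries, as stacked FPKM from 0. The *EGFR* share of the receptors is smallest in siHHEX 3 (11.4%), and *AREG* and *EREG* fill nearly all of the ligand bar in every library.

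*EPGN*, *EREG*, *AREG* and *BTC* lie side by side on chromosome 4 within 486.1 kb (chr4:74308470-74794523), and no other gene of the expression tables lies in that span. The 4 neighbours spanned a wide range of levels, from 0.0121 FPKM for *EPGN* to 216 FPKM for *AREG* in siNC. Their calls were not the same, although the differences between the genes were not tested: in siHHEX *EREG* fell while *AREG* and *BTC* were not called, and in siYAP/TAZ none of the 3 was called. After the correction of GC and length none of the 3 was called in siHHEX, with *EREG* at -0.22, *AREG* at -0.13 and *BTC* at 0.31. Pearson's r of log2(FPKM + 1), without that correction, was taken as a description over the 8 libraries, which share group means and siNC. It was 0.49 between *EREG* and *AREG*, 0.51 between *AREG* and *BTC* and 0.64 between *EREG* and *BTC*. The largest values between tested members, of either sign, were 0.96 for *EGFR* and *EREG* and -0.95 for *ERBB3* and *HBEGF*. Next came 0.91 for *EREG* and *ERRFI1* and -0.89 for *EGFR* and *ERBB2*.

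The rest of the pathway was read from lists of 64 genes, of which 52 were tested. In siHHEX, 10 were called higher and 15 lower, beside 16% and 16.9% of all tested genes, with a median log2 difference of -0.25 against -0.0055 over all tested genes. Nothing particular to these lists is read from the counts. Without siNC 1 or siNC 2 none of the 25 passed, without siHHEX 1 or siHHEX 3 the calls of 10 or 8 were lost, and without siYAP/TAZ 1 or siYAP/TAZ 2 those of 2 or 3. Of the 8 tested genes listed for ligand shedding, 3 fell, among them both main sheddases. *ADAM17* was at 3.68, 4.11 and 2.79 FPKM in siHHEX against 5.86 and 5.44 FPKM in siNC. *ADAM10* was at 10.3, 7.88 and 8.89 FPKM against 14.9 and 14.6 FPKM. *ADAM9* fell with them, while *RHBDF2*, which encodes the ADAM17 cofactor iRhom2, rose, and *ADAM15*, which encodes another metalloprotease, rose to 34.3, 29.7 and 32.5 FPKM against 15.5 and 16.1 FPKM. Of 12 tested brakes and turnover factors 4 fell, *CBL*, the gene of a ubiquitin ligase that sends EGFR to degradation, *LRIG3*, *SOCS4* and *SOCS5*, and *CBLC* rose. Among the adaptors *GRB7* and *SHC1* rose and *CRK* and *PTPN11* fell, out of 10 tested. In the RAS to ERK cascade *MAP2K2* and *MAPK3*, the genes of the kinases MEK2 and ERK1, rose, and the genes that fell included *BRAF* and the RAS inhibitors *NF1* and *RASA1*, out of 13 tested. In the PI3K and AKT branch *AKT1*, *AKT2* and *PIK3R2* rose and the genes that fell included *PIK3CB*, out of 9 tested. After the correction of GC and length, 3 of these 25 calls passed, *ADAM15* (limma, adjusted p = 0.0191), *MAPK3* (limma, adjusted p = 0.0223) and *SOCS5* (limma, adjusted p = 0.0456). Before that correction these 3 had an adjusted p from limma of 0.0746 to 0.0747 without siNC 1 and of 0.0589 without siNC 2. Median scaling ended the calls of *LRIG3* (limma, adjusted p = 0.0588) and *BRAF* (0.0841).

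In siYAP/TAZ 4 of the 52 tested pathway genes were called, beside 8.28% of all tested genes, a share like that of these lists. *GRB7*, which encodes an adaptor of ERBB receptors and lies close to *ERBB2*, was at 7.54 and 7.18 FPKM against 3.83 and 4.28 FPKM in siNC and rose by 0.73 (limma, adjusted p = 0.0219, and 0.62 after scaling, adjusted p = 0.0376). *MAPK3* rose by 0.64 (limma, adjusted p = 0.0207, and 0.53 after scaling, adjusted p = 0.0456). *SOS2*, the gene of a RAS exchange factor, had a difference of 0.62 just inside the threshold (limma, adjusted p = 0.0493) and was not called after scaling (0.51, limma, adjusted p = 0.0715). *PTPN1*, which encodes a phosphatase acting on EGFR, fell by 0.62, from 32.1 and 33.2 FPKM to 22.2 and 19.5 FPKM (limma, adjusted p = 0.0343), and by 0.73 after scaling. All 4 genes were still called after the correction of GC and length. None of the 4 was called without siNC 1, siNC 2 or siYAP/TAZ 2 (limma, adjusted p between 0.0906 and 0.276). *GRB7* and *MAPK3* were also not called without siYAP/TAZ 1 (0.057 and 0.0535), nor *SOS2* without siHHEX 1 (0.0711). None of the 8 tested shedding genes or the 9 of the PI3K branch was called. In siTEAD1/2/3/4, *MAPK3*, at 18.8 FPKM, was the 1 gene of the 52 past 1.5-fold on the log2(FPKM + 1) scale, which understates the change of the less abundant genes. It was at 0.62 on that scale, and no longer past 1.5-fold after median scaling (0.56), when *MAP2K1* was (-0.63), or after the correction of GC and length (0.52). The siHHEX and siYAP/TAZ comparisons share siNC, and *MAPK3* was at 23.9, 22.6 and 24.9 FPKM in siHHEX, 19.7 and 18.5 FPKM in siYAP/TAZ and 11.6 and 12.2 FPKM in siNC.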

How the data were processed

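RNA was isolated with Trizol and sequenced on an Illumina HiSeq, and the authors deposited the level of each gene as FPKM, in 1 file a library. The submitters' processing notes name Trimmomatic 0.36, HISAT2 2.0.5, Cufflinks 2.2.1 and HTSeq 0.9.1, and the paper names DESeq for differential expression. The genome build and annotation are not given in the sources used here. Read counts were not used, so depth is unknown, but the spacing of the lowest values put the libraries at 0.948 to 1.06 times the depth of siNC 1. FPKM shares 1 total per library, so a large change in a few genes moves the others.

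FPKM was taken as deposited, with no further scaling. Genes reaching 1 FPKM in 2 or more of the 8 libraries (10677 of 20030) entered a joint model of the 4 groups on log2(FPKM + 1), fitted with limma 3.58.1 (R 4.3.3) and a variance trend, and p-values were adjusted by Benjamini-Hochberg. The siTEAD1/2/3/4 library had no test. The fit was tested on simulated data, and no result here rests on that test. The correction for GC content and length took a natural spline of 4 degrees of freedom on each off every library, with GENCODE transcripts on GRCh38, for 99.5% of tested genes. Other steps used Python 3.11.15, numpy 2.4.6, pandas 2.3.3 and matplotlib 3.10.9.

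The members, the pathway and marker lists and the tests were chosen with earlier results of these data known. All members are named, and pathway genes are named where called in siHHEX or siYAP/TAZ, apart from some that are counted but not reported by name here. For each tested member, the 3 other tested genes with the highest Pearson correlation over the 8 libraries are named.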

Additional observations from a re-analysis of the deposited data

How the results depend on the processing

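With 2 or 3 libraries a group, the calls rest on a spread shared by all groups, and depth is unknown, so that levels near 0, as of *EPGN*, cannot be compared. The causes of the changes below were not tested. Where 2 or 3 members are counted as higher in siYAP/TAZ, 1 is *BTC*, from which no call is read. *BTC* is also 1 of the members where 2 are past 1.5-fold upward in siTEAD1/2/3/4. The same holds where 6 are lower in the direct comparison. Under the study's criterion 0 members were lower and 0 higher in siHHEX (4 and 1 before), 0 and 0 in siYAP/TAZ (1 and 1) and 1 and 0 in siHHEX against siYAP/TAZ (6 and 1), and the genes called among all tested were 174 (3518), 168 (884) and 162 (4200). With no filter on low values, 1907 genes were called in siHHEX and 320 in siYAP/TAZ, with 0 members lower and 0 higher in siYAP/TAZ and 0 higher in the direct comparison. After the correction of GC and length, 1 member was lower and 0 higher in siHHEX among 665 genes, 2 were higher in siYAP/TAZ among 1328 genes, 2 were lower and 0 higher in the direct comparison among 958 genes, and 2 were past 1.5-fold upward in siTEAD1/2/3/4. In fits of the compared groups, 0 members were higher in siHHEX, 3 higher in siYAP/TAZ among 1759 genes, and 0 higher in the direct comparison. Median scaling gave 2 higher in the direct comparison and 1 past 1.5-fold downward in siTEAD1/2/3/4 (0 before). A pseudocount of 0.1 gave 1 past 1.5-fold downward and 2 upward in siTEAD1/2/3/4 among 1297 genes (676 before).

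Leaving out each library in turn gave 0 to 4 members lower and 0 to 1 higher in siHHEX among 19 to 4839 genes, 0 to 1 lower and 0 to 2 higher in siYAP/TAZ among 15 to 1317, 2 to 6 lower and 0 to 1 higher in the direct comparison among 1026 to 5161, and 0 to 1 lower and 1 to 1 higher past 1.5-fold in siTEAD1/2/3/4 among 681 to 742. The fewest genes came without siNC 1 (19) and siNC 2 (27) in siHHEX, without siNC 2 (15) and siNC 1 (22) in siYAP/TAZ, which also gave 92 genes without siYAP/TAZ 2, and without siYAP/TAZ 2 (1026) in the direct comparison.

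Libraries with the same replicate number did not deviate together (Pearson's r of deviations from the group means -0.0704 to 0.0215), so the number does not pair them. With the replicate block, 2062 genes were called in siHHEX, with 0 members higher and *TGFA* no longer called (limma, adjusted p = 0.0667), 2 members were higher in siYAP/TAZ and 0 higher in the direct comparison. With the replicate block and the correction of GC and length together, 0 members were lower and 0 higher in siHHEX among 155 genes, 2 were higher in siYAP/TAZ, and 0 were lower and 0 higher in the direct comparison among 277 genes.

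The sign turned for 7 differences that were not called or not tested. In siHHEX, *AREG* was 0.039 without siHHEX 2 (-0.34 to 0.039 leaving out each library), and *BTC* was 0.0031 after median scaling, 0.31 after the correction, 0.064 with the replicate block, 0.064 without siHHEX 3 (-0.22 to 0.064 leaving out each library), and 0.39 with both block and correction. In siYAP/TAZ, *EREG* was -0.021 after median scaling and -0.027 without siYAP/TAZ 1 (-0.027 to 0.19 leaving out each library), and *ERRFI1* was -0.078 without siYAP/TAZ 1 (-0.078 to 0.39). In siHHEX against siYAP/TAZ, *ERBB2* was -0.051 after the correction and -0.020 with block and correction, and *TGFA* was 0.11 after median scaling, 0.17 after the correction, 0.19 with block and correction and 0.079 without siYAP/TAZ 1 (-0.21 to 0.079). In siTEAD1/2/3/4, *EREG* was 0.023 after the correction. No called difference changed sign.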

Other observations

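For each tested member, the 3 tested genes with the most similar pattern over the 8 libraries were taken. Pearson's r of log2(FPKM + 1) was used, without the correction of GC and length. It is a description without a test, since a high r is easily found among 10677 genes and the libraries share their group means. *EGFR* was most like *FAM169A* (r = 0.99), *ARFGEF2* and *LEPROT*, and *ERBB2* most like *FOXRED1* (r = 0.99), *MFAP2* and *FAM53C*. *ERBB3* was nearest to *ZBTB40* (r = 0.99), *BBS4* and *NR4A2*, which encodes an orphan nuclear receptor. *AREG* had *PILRB* (r = 0.98), *TAPBP* and *TPCN2*, and *EREG* had *ZNF800* (r = 0.99), *CPEB4* and *PTAR1*. *HBEGF* was nearest to *FOSL1* (r = 0.98), the gene of the AP-1 subunit FRA1, *ACTG1*, the gene of cytoplasmic gamma actin, and *ADM5*. *TGFA* was nearest to *SLC25A32* (r = 0.99), *COPS3* and *CCND1*, the gene of cyclin D1 (r = 0.97), *BTC* to *ETAA1* (r = 0.99), *FAM161A* and *TCAF1*, and *ERRFI1* to *WASHC4* (r = 0.98), *MDM2*, which encodes the p53 ubiquitin ligase, and *TMTC3*.

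In siHHEX against siYAP/TAZ, 7 of the 52 tested pathway genes were called higher and 19 lower, beside 13.5% and 25.9% of all tested genes, with a median log2 difference of -0.19 against -0.13 over all tested genes. Nothing particular to these lists is read from the counts. Of the 26 calls, 20 passed after median scaling and 2 after the correction of GC and length, *CRK*, the gene of an SH2 and SH3 adaptor (limma, adjusted p = 0.0328), and *RASA1*, which encodes a RAS GTPase-activating protein (limma, adjusted p = 0.0365), both lower in siHHEX. Leaving out siYAP/TAZ 1 or siYAP/TAZ 2 ended 10 or 16 of the 26, siHHEX 1 or siHHEX 3 ended 5 or 6, and siNC 1 or siNC 2 ended 3 each.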
